A study of Homo sapiens with 6 samples.

Results

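The genes described here are the ATP-binding cassette (ABC) transporters, taken as every row of the deposited table whose symbol consists of ABC, a letter from A to G and a number. The rule found 45 genes among 20289. The RNA of 6 libraries was sequenced, all carrying the label T24, an established human bladder cancer cell line grown in RPMI medium with serum. Cells were transfected with empty pcDNA3.1 in the 3 libraries labelled Vector and with pcDNA3.1 that holds LINC00665, a non-coding RNA gene, in the other 3. The design text names 3 independent experiments. LINC00665 is not a row of the table, so its level was not analysed here.

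The labels need care before any value is read. A check for mixed-up samples left 3 of the 6 libraries without a match to the line they are labelled as, so groups are called the Vector label and the LINC00665 label throughout. Line and plasmid cannot be told apart in this design. Of 15 urothelial and epithelial markers, 12 were tested and all 12 were higher under the LINC00665 label (100%, beside 34.2% of all genes tested). Of these, 8 passed the filter on low counts only through the LINC00665 libraries, so the filter fixed their direction. UPK1A, not tested, went the other way, with 33 counts under the Vector label and 2 under the LINC00665 label. The 15 markers summed to 10.1 to 14.8 CPM (counts relative to the TMM-scaled library size) under the Vector label. Under the LINC00665 label they summed to 6235 to 7333 CPM, and KRT20 had 0 counts in every library. The 7 kidney tubule markers summed to 336 to 457 CPM under the Vector label and 14.9 to 16.4 CPM under the LINC00665 label. In that order of labels, fibroblast markers summed to 2.07 to 4.1 and 239 to 265 CPM. Most of the second sum was THY1, at 0.0543 and 165 CPM, and COL1A1, at 1.64 and 71.3 CPM. The fibroblast markers LUM and DCN had 9 and 10 counts and 0 and 19 counts. Endothelial markers summed to 0.28 to 1.03 and 11.4 to 12.9 CPM, and leukocyte markers to 10.8 to 17.1 and 25.2 to 37.8 CPM. Hepatocyte markers summed to 2.54 to 8.77 and 225 to 297 CPM. SERPINA1 made up nearly all of the hepatocyte sum, with means of 5.28 and 261 CPM, and ALB had 0 and 5 counts. Most of the leukocyte sum was CD68, at 13.7 and 24.5 CPM, and CD14, at 0.284 and 5.18 CPM. ITGAM, another leukocyte marker, went the other way with 10 and 5 counts. The endothelial marker CDH5 was at 0.436 and 0.484 CPM. Among defining markers, TTR had 0 counts in every library, and PTPRC had 1 count under the Vector label and 0 under the other. The part of these markers in the results below was not tested. In bulk RNA, fewer cells that express a gene and less of its RNA per cell cannot be told apart.

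ABC transporters are membrane proteins that use the hydrolysis of ATP to move substrates across a membrane. Each works through paired nucleotide-binding domains, which either lie on 1 long chain or come together when shorter chains pair. Members of the B, C and G subfamilies at the cell surface export drugs, conjugates and organic anions and are known from multidrug resistance of tumours. Most A subfamily members and several of the G subfamily move phospholipids and sterols. The D subfamily carries fatty acyl groups into peroxisomes, some B members lie in mitochondria, and the E and F proteins have no membrane part and act on ribosomes.

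The stretch before the start site is shown for 4 members on which the results turn. ABCA1 and ABCA3 differed most in opposite directions among lipid transporters with more than 3 counts in both labels, ABCC4 differed most among drug transporters by the same measure, and ABCB6 differed most among mitochondrial members. Each run is the 250 bases before the annotated start, 5′ to 3′ on the gene's strand, from RefSeq on GRCh38.p14, with every CpG in capitals. ABCA1 lies at chr9:104928156-104928405, ABCA3 at chr16:2340729-2340978, ABCB6 at chr2:219218959-219219208 and ABCC4 at chr13:95301452-95301701, all on the minus strand.
ABCA1: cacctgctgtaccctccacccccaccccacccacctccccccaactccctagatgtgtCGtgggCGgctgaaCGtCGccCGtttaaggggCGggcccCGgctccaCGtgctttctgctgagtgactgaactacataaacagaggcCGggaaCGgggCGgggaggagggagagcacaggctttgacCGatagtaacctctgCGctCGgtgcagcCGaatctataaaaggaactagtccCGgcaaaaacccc
ABCA3: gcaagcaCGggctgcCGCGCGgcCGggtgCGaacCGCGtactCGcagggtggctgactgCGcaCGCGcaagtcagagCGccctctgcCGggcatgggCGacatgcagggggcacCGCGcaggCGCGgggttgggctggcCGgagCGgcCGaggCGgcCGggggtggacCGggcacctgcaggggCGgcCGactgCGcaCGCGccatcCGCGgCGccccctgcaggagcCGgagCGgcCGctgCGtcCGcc
ABCB6: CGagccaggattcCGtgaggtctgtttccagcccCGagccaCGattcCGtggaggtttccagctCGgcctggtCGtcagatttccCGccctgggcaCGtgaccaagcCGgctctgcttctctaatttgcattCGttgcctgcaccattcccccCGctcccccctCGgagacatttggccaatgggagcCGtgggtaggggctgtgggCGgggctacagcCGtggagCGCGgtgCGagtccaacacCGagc
ABCC4: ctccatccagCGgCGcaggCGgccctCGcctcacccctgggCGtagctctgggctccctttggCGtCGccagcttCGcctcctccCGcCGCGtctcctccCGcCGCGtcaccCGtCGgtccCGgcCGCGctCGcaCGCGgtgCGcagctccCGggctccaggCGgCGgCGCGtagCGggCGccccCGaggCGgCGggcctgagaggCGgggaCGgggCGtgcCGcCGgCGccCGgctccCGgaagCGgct
The windows of ABCC4 and ABCA3 hold 42 and 38 CpG, and those of ABCB6 and ABCA1 hold 20 and 16.

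Across the family more genes were lower than higher under the LINC00665 label. Of the 45 members, 34 passed the filter on low counts and entered the edgeR fit (quasi-likelihood). With p-values adjusted over all 13552 genes tested and a threshold of 0.05, 16 members were lower and 9 were higher. That is 47.1% and 26.5% of the members tested, beside 29.3% lower and 34.2% higher over all tested genes. In either direction 73.5% of the members were called, beside 63.5% of all genes. Of the called members, 17 differed by 1 or more on the log2 scale in either direction, 50% of those tested, beside 42% of all genes. The 3 libraries of one label lay wholly above those of the other for 24 of the 34 members (70.6%), beside 70.2% of all genes. The median log2 fold change of the members tested was -0.53, and the same when undetected genes were placed at their bound, and that of all tested genes was 0.03. Of the 34 members, 11 passed the filter in the libraries of one label only (32.4%, beside 15.3% of all genes tested). Among them were 7 of the 9 higher and 3 of the 16 lower genes, so the filter fixed their direction. Replicates of a label are stated to be independent experiments, with no further detail.

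**Figure D1:**
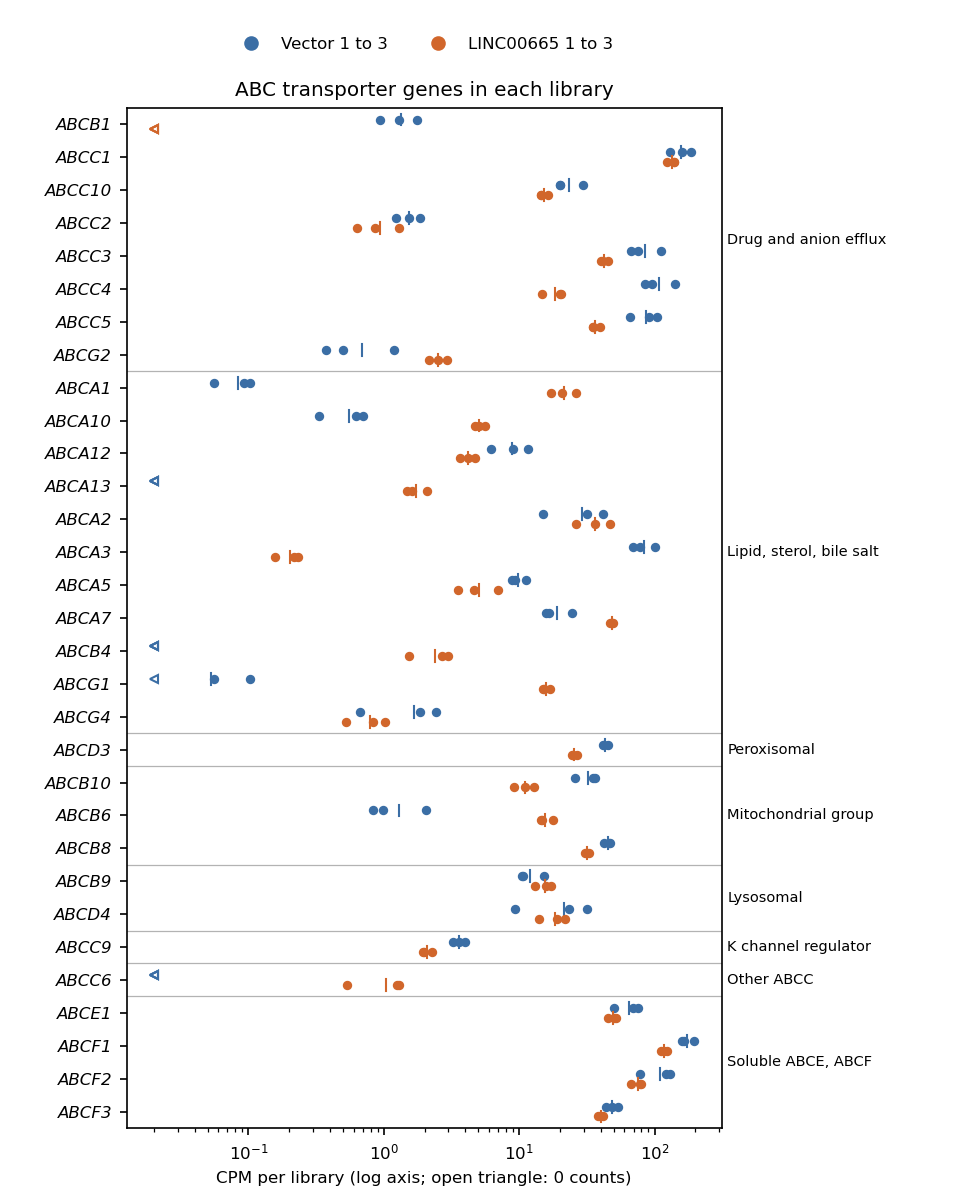
Each point is 1 library, on a log axis of CPM, for 31 members with a mean of at least 1 CPM under either label; blue is Vector, orange LINC00665, short bars are means, and open triangles at the left edge stand for 0 counts. ABCA1, ABCG1, ABCB6 and ABCA3 show the widest gaps between labels among genes detected in both, while the libraries of ABCC1 overlap.

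Transporters of drugs and organic anions were mostly lower under the LINC00665 label. Of 10 members 9 were tested, 6 were lower (66.7%, beside 29.3% of all genes tested), 1 was higher (11.1%, beside 34.2%) and 2 did not pass. The summed level was 428 to 517 CPM in the Vector libraries and 231 to 262 CPM in the LINC00665 libraries, with no overlap. ABCC4 (MRP4), an exporter of cyclic nucleotides and prostaglandins, stood at 142, 95.7 and 85 CPM in Vector 1 to 3 and at 20.4, 14.8 and 20 CPM in LINC00665 1 to 3. The lowest Vector library was above the highest LINC00665 library, and the log2 fold change was -2.55 (standard error 0.24, adjusted p = 3.9e-05 by edgeR). ABCC5 (MRP5), which also exports nucleotides and their analogs, was at 66.1, 90.7 and 104 CPM and at 39.6, 34.9 and 34.8 CPM. Its log2 fold change was -1.25 (standard error 0.19, adjusted p = 0.00057 by edgeR). ABCC3 (MRP3), an exporter of glucuronides and bile salts on the basolateral side of epithelia, was at 66.5, 112 and 75.3 CPM and at 45.3, 40.6 and 41.9 CPM. It differed by -0.99 on the log2 scale (standard error 0.21, adjusted p = 0.0034 by edgeR), and Vector 2 was the highest library. For ABCC10 (MRP7), known for export of taxanes, the values were 20.1, 29.8 and 20 CPM and 14.6, 14.6 and 16.3 CPM. The labels did not overlap, with a log2 fold change of -0.62 (standard error 0.2, adjusted p = 0.025 by edgeR), but the call was lost without LINC00665 1 (adjusted p = 0.089) or LINC00665 2 (adjusted p = 0.066).

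The best known multidrug exporters went opposite ways, at low levels. ABCB1, which encodes P-glycoprotein, had 1.31, 0.944 and 1.76 CPM in the Vector libraries and 0 counts in all 3 LINC00665 libraries. With 3 counts over the group as the limit of detection, it was at least 26.5-fold lower under the LINC00665 label (edgeR adjusted p = 0.00045). ABCB1 overlaps RUNDC3B on the other strand, which was at 0.994 and 1.19 CPM under the 2 labels, and the use of strand in counting is not stated. ABCG2, the breast cancer resistance protein that exports urate and porphyrins as well as drugs, was at 0.373, 0.5 and 1.19 CPM and at 2.51, 2.15 and 2.91 CPM. All LINC00665 libraries were above all Vector libraries, with a log2 fold change of 1.87 (standard error 0.45, adjusted p = 0.0063 by edgeR). ABCC11 (MRP8), an exporter of lipophilic anions in apocrine glands, had 35 counts in all under the Vector label and 0 under the other, at least 11.7-fold lower (edgeR adjusted p = 0.0011). It overlaps LONP2, a peroxisomal protease gene on the other strand, which was at 99.9 ± 8.93 and 44.5 ± 2.4 CPM (SD, n = 3). ABCB1 and ABCC11 passed the filter only through the Vector libraries and ABCG2 only through the LINC00665 libraries. The filter therefore fixed the direction of these 3 among the 9 tested (33.3%, beside 15.3% of all genes that passed in one label only).

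ABCC1 (MRP1), the glutathione conjugate exporter, was the most abundant drug transporter per length under both labels, at 25.7 and 19.6 FPKM (fragments per kilobase of transcript and library size). In counts it was at 130, 186 and 158 CPM and at 139, 124 and 140 CPM. The libraries overlapped, and the log2 fold change of -0.24 (standard error 0.16, adjusted p = 0.24 by edgeR) did not pass. ABCC2 (MRP2), its relative of apical membranes, was at 1.54, 1.22 and 1.86 CPM and at 1.3, 0.63 and 0.861 CPM, and its log2 fold change of -0.72 (standard error 0.38, adjusted p = 0.13 by edgeR) did not pass either. ABCB5 had 0 counts in every library, below the 3 counts that limit detection. Next to ABCC1 in level under the Vector label came ABCC3 and ABCC4 with 22.1 and 20.8 FPKM, whereas under the LINC00665 label they were at 10.7 and 3.22 FPKM.

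**Figure D2:**
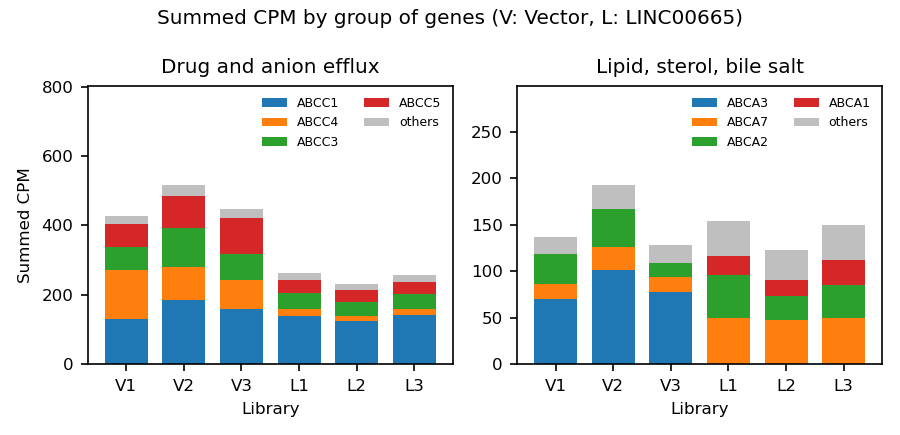
Stacked bars give the summed CPM of each group of genes in each library (V1 to V3 Vector, L1 to L3 LINC00665), starting at 0, with the most abundant genes coloured; CPM is not per length, so heights of different genes within a bar reflect length as well. Drug exporters summed to 428 to 517 CPM under the Vector label and 231 to 262 CPM under the other, and lipid transporters overlapped between labels while their makeup differed.

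Lipid, sterol and bile salt transporters differed in which genes were present. Of 18 members 11 were tested, 6 were higher (54.5%, beside 34.2% of all genes tested) and 3 lower (27.3%, beside 29.3%) under the LINC00665 label, and 2 did not pass. Of the 6 higher genes 5 passed the filter only through the LINC00665 libraries, and of the 3 lower genes 1 only through the Vector libraries. Among the 11 tested, 63.6% passed in one label only, beside 15.3% of all genes tested. With at least 1 CPM required under both labels 1 was higher and 2 were lower. The summed level overlapped, at 128 to 193 CPM in the Vector libraries and 123 to 154 CPM in the LINC00665 libraries. ABCA1, which loads cholesterol and phospholipid onto apolipoprotein A-I, had 0.0932, 0.0555 and 0.103 CPM under the Vector label, 5 counts in all. In the LINC00665 libraries it reached 20.7, 17.2 and 26.4 CPM, a log2 fold change of 7.88 (standard error 0.35, adjusted p = 6.9e-07 by edgeR). ABCG1, which passes cholesterol on to high-density lipoprotein, had 3 counts under the Vector label and 16.9, 15.2 and 15.1 CPM in the LINC00665 libraries. The ratio was 309, with 95% counting bounds of 106 and 1503 (edgeR adjusted p = 1.7e-06). Both genes were close to absent under one label and at moderate level under the other, at 2.06 (ABCA1) and 5.23 FPKM (ABCG1).

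ABCA3, the transporter that fills lamellar bodies with surfactant lipid in the lung, was the reverse. It stood at 69.9, 101 and 78.1 CPM in the Vector libraries and at 0.233, 0.158 and 0.215 CPM in the LINC00665 libraries, where it had 12 counts in all. Its log2 fold change was -8.63 (standard error 0.28, adjusted p = 2.1e-07 by edgeR), and it made up most of the summed lipid transporter level under the Vector label. ABCA7, a phospholipid transporter of macrophages and brain, was at 16.7, 24.7 and 15.9 CPM and at 49, 47.1 and 48.9 CPM. It was higher in every LINC00665 library, by 1.34 on the log2 scale (standard error 0.2, adjusted p = 0.00047 by edgeR). ABCA12, which loads lipid into the lamellar granules of keratinocytes, was at 6.15, 11.6 and 9 CPM and at 4.74, 3.68 and 4.2 CPM. Its log2 fold change was -1.08 (standard error 0.27, adjusted p = 0.0083 by edgeR).

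ABCB4, the phosphatidylcholine floppase of bile canaliculi, had 0 counts under the Vector label and 2.98, 1.52 and 2.69 CPM in the LINC00665 libraries. It was at least 47.4-fold higher (edgeR adjusted p = 0.00024). ABCA13, the largest protein of the family, also had 0 counts under the Vector label and 1.49, 1.63 and 2.1 CPM under the other, at least 33.8-fold higher (edgeR adjusted p = 2e-04). These levels are low, and the bounds cover counting error only. ABCA4, the retinal flippase of photoreceptors, was not tested. It had 1 count under the Vector label and 40 under the LINC00665 label, and the ratio of 39.8 has 95% counting bounds of 6.74 and 1610. With no filter on low counts it was past the threshold (log2 fold change 4.85, edgeR adjusted p = 0.0034).

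ABCA10 and ABCA5 are neighbours on chromosome 17, on the same strand, and their annotated ends overlap. ABCA10 was at 0.699, 0.333 and 0.621 CPM and at 5.02, 5.57 and 4.68 CPM, a log2 fold change of 3.18 (standard error 0.33, adjusted p = 6.6e-05 by edgeR). ABCA5, a lysosomal member of the subfamily, was at 9.37, 11.3 and 8.9 CPM and at 4.65, 3.52 and 6.95 CPM, a log2 fold change of -0.97 (standard error 0.28, adjusted p = 0.014 by edgeR). The pair differed in opposite directions, each without overlap between labels, and reads in the shared stretch could be assigned to either. For ABCA5 the call was lost without LINC00665 1 (adjusted p = 0.058). Others of the same cluster, ABCA6, ABCA8 and ABCA9, had 3 counts at most under either label.

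ABCA2, a lysosomal lipid transporter of brain, was at 31.7, 41.3 and 14.9 CPM and at 46.6, 26.4 and 36.6 CPM, with overlap and a log2 fold change of 0.32 (standard error 0.36, adjusted p = 0.46 by edgeR). Without Vector 3 that value was close to 0. ABCG4, a sterol transporter of brain, was at 1.86, 2.44 and 0.673 CPM and at 0.837, 0.525 and 1.02 CPM, with a log2 fold change of -1.05 (standard error 0.51, adjusted p = 0.1 by edgeR). It passed the threshold without Vector 3 (-1.43, adjusted p = 0.015). The bile salt export pump ABCB11 and the sterol pair ABCG5 and ABCG8 had 3 counts at most under either label, too few for any difference to be detectable.

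The peroxisomal membrane transporter ABCD3 was lower under the LINC00665 label. ABCD3 (PMP70), which carries branched-chain and dicarboxylic acyl groups, was at 41.7, 45.7 and 42.7 CPM and at 24.9, 24.7 and 26.6 CPM. Its replicates lay close together and the log2 fold change was -0.77 (standard error 0.13, adjusted p = 0.0012 by edgeR). ABCD2, another member of the D subfamily, was not tested, with 18 counts in the Vector libraries and 11 in the LINC00665 libraries.

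The genes that work with the peroxisomal transporters were lower in more cases than higher. In a list of 20 genes of peroxisome import and beta-oxidation, 19 were tested. Of these 11 were lower (57.9%, beside 29.3% of all genes) and 1 was higher (5.26%, beside 34.2%). The 63.2% called in either direction lay near the 63.5% of all genes. ACBD5, which tethers peroxisomes to the endoplasmic reticulum, was at 41.8 ± 6.43 and 10.2 ± 1.36 CPM (SD, n = 3). ACOX3, an acyl-CoA oxidase, was at 27.5 ± 4.26 and 10.4 ± 0.0733 CPM, and the carnitine acyltransferase CRAT was at 114 ± 13.4 and 53.3 ± 4.42 CPM. All 3 were lower by edgeR (adjusted p = 3.4e-05, 0.00017 and 0.00032), and the gene that was higher was PEX16, a peroxisome membrane assembly factor, at 14.2 ± 1.16 and 26.9 ± 1.37 CPM. Vector 3 was the lowest Vector library for 13 of the 19 genes, and without it 10 were lower.

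Among the members linked to mitochondria, ABCB6 stood apart from the others. ABCB6, a porphyrin transporter, was at 0.839, 2.05 and 0.983 CPM and at 17.8, 14.4 and 14.7 CPM, a log2 fold change of 3.61 (standard error 0.34, adjusted p = 4.1e-05 by edgeR). A transcript without a symbol overlaps it on the same strand, at 1.3 and 0.217 CPM. ABCB10, an exporter of the inner membrane needed for haem synthesis, was at 35.3, 25.9 and 36.1 CPM and at 11.1, 9.09 and 12.9 CPM, a log2 fold change of -1.55 (standard error 0.21, adjusted p = 0.00027 by edgeR). ABCB8 was at 46.4, 42.5 and 46.7 CPM and at 32.8, 31.7 and 30.5 CPM (-0.51, standard error 0.13, adjusted p = 0.0095 by edgeR).

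Of 17 genes of haem and iron-sulfur cluster synthesis, all tested, 7 were lower, 1 was higher and 9 did not pass. FECH, which inserts iron into haem, was at 78.9 ± 19.2 and 23.5 ± 1.13 CPM, and UROD, an earlier enzyme of that route, at 99.9 ± 7.02 and 48.7 ± 3.02 CPM (SD, n = 3). Both were lower by edgeR (adjusted p = 0.00013 and 0.00025). The gene that was higher was SLC25A37, the mitochondrial iron importer, at 46.6 ± 8.85 and 119 ± 18 CPM. The share of lower genes was 41.2%, beside 29.3% of all genes, and that of higher genes 5.88%, beside 34.2%. In either direction 47.1% were called, which lay below the 63.5% of all genes.

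**Figure D3:**
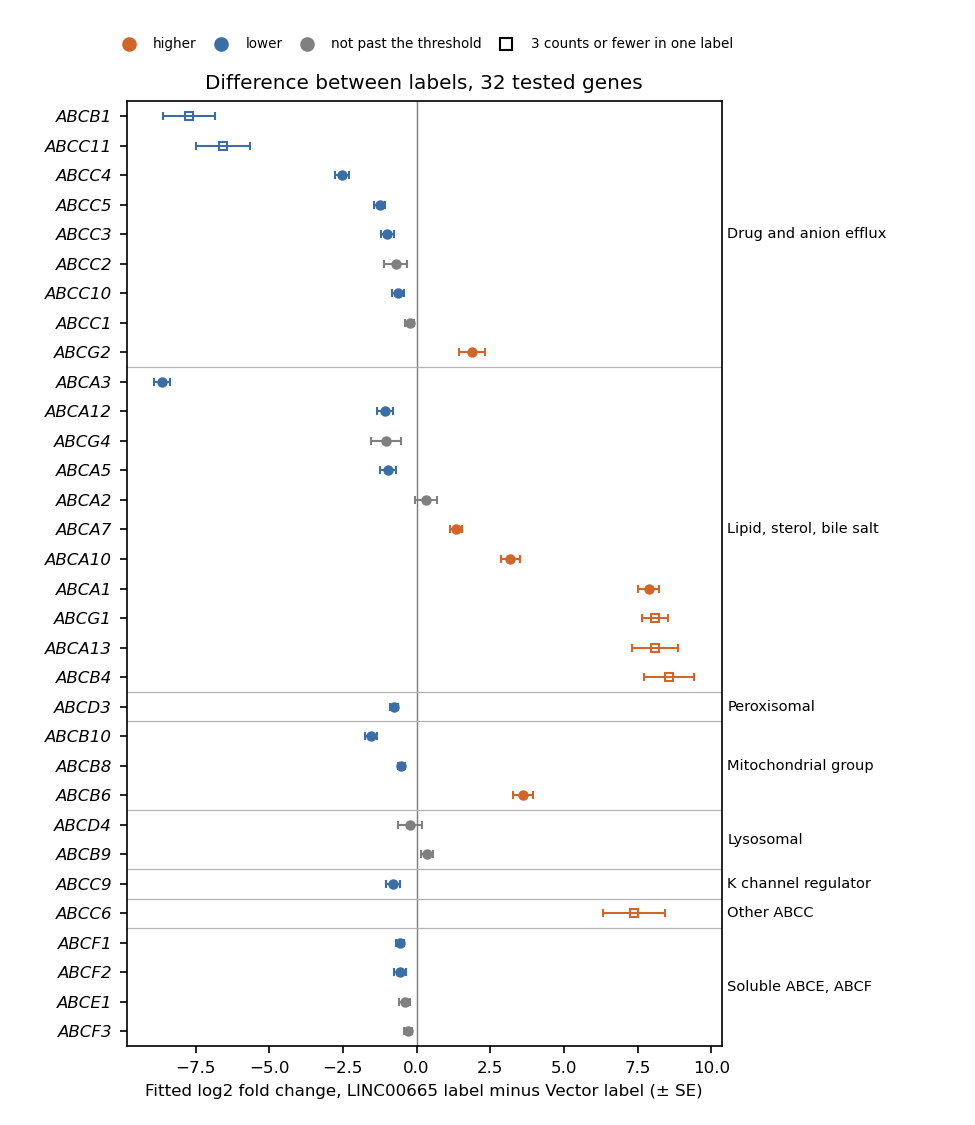
Points give the fitted log2 fold change of 32 tested members, LINC00665 label minus Vector label, and bars the standard error; orange is higher, blue lower and grey not past the threshold, and open squares mark genes with 3 counts or fewer under one label, whose fitted value depends on the prior count. Drug exporters lie mostly left of 0, with ABCG2 at 1.87, and lipid transporters spread from ABCA3 at -8.63 to ABCA1 at 7.88 among those with more than 3 counts in both labels.

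Neither ABCD4 nor ABCB9, the members grouped here as lysosomal, passed the threshold. ABCD4, which releases cobalamin (vitamin B12) from lysosomes, was at 23.3, 31.6 and 9.26 CPM and at 19.1, 14 and 21.8 CPM. Vector 3 was the lowest of all libraries and the log2 fold change was -0.23 (standard error 0.4, adjusted p = 0.64 by edgeR). It was -0.59 without Vector 3 (adjusted p = 0.048) and 0.16 without Vector 2 (adjusted p = 0.72). ABCB9, a lysosomal peptide transporter, was at 10.4, 15.2 and 10.6 CPM and at 13.2, 17.3 and 15.7 CPM, a log2 fold change of 0.35 (standard error 0.21, adjusted p = 0.18 by edgeR), and passed without Vector 2 (0.54, adjusted p = 0.03). It overlaps ARL6IP4 on the other strand, a more abundant gene at 75.4 and 120 CPM. Of 8 genes of cobalamin handling, 5 were lower (62.5%, beside 29.3% of all genes) and 0 higher. The share called in either direction, also 62.5%, was near the 63.5% of all genes. Among them were MMUT, a mitochondrial cobalamin enzyme, at 31 ± 4.02 and 13.8 ± 1.31 CPM, the uptake receptor CD320 at 57.2 ± 9.73 and 26.9 ± 4.19 CPM, and the cobalamin chaperone MMADHC at 105 ± 9.83 and 61.3 ± 2.54 CPM (SD, n = 3; edgeR adjusted p = 0.00041, 0.0011 and 0.0013).

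ABCC9 (SUR2), the regulatory subunit of ATP-sensitive potassium channels of muscle and vessels, was at 4.01, 3.22 and 3.57 CPM and at 2.28, 2 and 1.94 CPM. The labels did not overlap and the log2 fold change was -0.8 (standard error 0.25, adjusted p = 0.021 by edgeR). The call was lost without Vector 1 and without any one of the LINC00665 libraries (adjusted p = 0.054 to 0.076). Its pancreatic counterpart ABCC8 had 0 counts in every library. Of the channel's pore subunits, KCNJ11 was at 4.46 ± 1.69 and 2.7 ± 0.162 CPM (SD, n = 3; edgeR adjusted p = 0.072), and KCNJ8 was not tested. ABCC6, a liver and kidney transporter that is defective in pseudoxanthoma elasticum, had 0 counts under the Vector label and 1.3, 1.26 and 0.538 CPM in the LINC00665 libraries, at least 20.6-fold higher (edgeR adjusted p = 0.0012). It has the pseudogenes ABCC6P1 and ABCC6P2, so its reads are uncertain, and it did not reach the test without LINC00665 1 or LINC00665 2. ABCC12 had 0 counts in every library.

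The soluble members, which act in translation, included the most abundant gene of the family. Of the 4, all tested, 2 were lower (50%, beside 29.3% of all genes) and 0 higher. The 50% called in either direction lay below the 63.5% of all genes. ABCF1, a factor of translation initiation, ranked first per length under both labels at 54.2 and 32.7 FPKM. It was at 160, 165 and 197 CPM and at 123, 111 and 118 CPM, a log2 fold change of -0.57 (standard error 0.14, adjusted p = 0.008 by edgeR). ABCF2 was at 121, 129 and 78.4 CPM and at 78.2, 66.8 and 79.6 CPM, with overlap through Vector 3. Its log2 fold change of -0.55 (standard error 0.2, adjusted p = 0.044 by edgeR) lost its call without any one of 5 libraries, all but Vector 3 (adjusted p = 0.079 to 0.13). A readthrough gene, ABCF2-H2BE1, shares its strand and was at 63 and 50.4 CPM, so reads of the pair may have been split. ABCE1, which splits ribosomes after termination, was at 75.4, 49.9 and 69.5 CPM and at 51.5, 45 and 50.6 CPM (-0.41, standard error 0.18, adjusted p = 0.08 by edgeR), and passed without Vector 2 (-0.57, adjusted p = 0.0066). ABCF3 was at 43.4, 48.9 and 53.5 CPM and at 41.8, 38.3 and 39.6 CPM, without overlap, and its log2 fold change of -0.29 (standard error 0.14, adjusted p = 0.11 by edgeR) did not pass.

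Of 13 genes of ribosome recycling and translation initiation, 7 were lower (53.8%, beside 29.3% of all genes), 2 higher (15.4%, beside 34.2%) and 4 did not pass. In either direction 69.2% were called, beside 63.5% of all genes. The GTPase DRG1 was at 98.7 ± 9.81 and 50 ± 3.75 CPM and NEMF, which marks stalled ribosomes' nascent chains, at 15.8 ± 3.21 and 5.94 ± 0.516 CPM. ZNF598, a sensor of collided ribosomes, was at 39.8 ± 5.83 and 82.8 ± 6.41 CPM (SD, n = 3). By edgeR DRG1 and NEMF were lower and ZNF598 higher (adjusted p = 0.00048, 5e-04 and 0.00056).

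Genes that regulate or work beside the drug and lipid transporters moved both ways. Of 14 genes of the liver X receptor (LXR) list, which governs sterol export and includes ABCA1 and ABCG1, 13 were tested, 6 were higher (46.2%, beside 34.2% of all genes) and 3 lower (23.1%, beside 29.3%). The 69.2% called in either direction lay near the 63.5% of all genes. After ABCA1 and ABCG1 the smallest p was that of APOE, an apolipoprotein that accepts exported cholesterol, at 0.346 ± 0.134 and 14.5 ± 1.29 CPM (SD, n = 3; edgeR adjusted p = 1.9e-06). The 3 lower genes were SREBF1, SCD and FASN (edgeR adjusted p = 0.0015, 0.017 and 0.024). The receptor genes NR1H3 and NR1H2 did not pass (edgeR adjusted p = 0.28 and 0.6). Of the 6 higher genes 5 would not have passed the filter under the Vector label alone. Of 15 genes of xenobiotic sensing and conjugation, 12 were tested, 6 were higher (50%, beside 34.2% of all genes) and 5 lower (41.7%, beside 29.3%). AHR, the receptor for aromatic hydrocarbons, was at 10.2 ± 1.03 and 237 ± 26.7 CPM (SD, n = 3; edgeR adjusted p = 3.7e-07). The glucuronosyltransferases UGT1A6 and UGT1A1 had 2 and 3 counts under the Vector label and were at 64.1 and 4.8 CPM under the LINC00665 label. Their ratios were 1901 (95% counting bounds 526 and 15704) and 95.5 (32.3 and 466), and both are uncertain because they share exons. UGT1A6 and UGT1A1 would not have passed the filter under the Vector label alone, so the filter fixed their direction.

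Of 15 uptake carriers for organic ions, nucleosides, folate and copper, 13 were tested, 6 were higher (46.2%, beside 34.2% of all genes), 2 lower (15.4%, beside 29.3%) and 5 did not pass. The 61.5% called in either direction lay near the 63.5% of all genes. Of the 6 higher genes 3 passed the filter only through the LINC00665 libraries (SLCO3A1, SLCO2A1 and SLCO1B3). Of the 2 lower genes 1, SLCO2B1, passed only through the Vector libraries, so the filter fixed the direction of all these. The organic anion carriers SLCO3A1 and SLCO2A1 had 3 counts and 1 count under the Vector label and were at 72.2 and 3.16 CPM under the LINC00665 label. Their ratios were 1414 (95% counting bounds 483 and 6859) and 186 (33 and 7385). SLCO1B3, a liver anion carrier, had 0 counts and 7.87 CPM, at least 153-fold higher. SLCO2B1, another organic anion carrier, went the other way, with 428 counts under the Vector label and 0 under the LINC00665 label, at least 143-fold lower (adjusted p = 0.00017 by edgeR). Family members with other symbols were counted apart. TAP1 and TAP2, which carry peptides into the endoplasmic reticulum for antigen presentation, were at 40.8 ± 9.95 and 83.2 ± 15.6 CPM and at 55.1 ± 19.2 and 65.9 ± 4.69 CPM (SD, n = 3). TAP1 was higher (log2 fold change 1.03, edgeR adjusted p = 0.0036) and TAP2 did not pass (adjusted p = 0.38). Of the 5 genes of the peptide loading complex, TAPBP was lower (268 ± 36.1 and 75.4 ± 13.2 CPM), CALR and TAPBPL were higher (1045 ± 109 and 1699.7 ± 187 CPM, 4.76 ± 1.8 and 9.53 ± 2.96 CPM; edgeR adjusted p = 5.8e-05, 0.0031 and 0.026) and 2 did not pass. That is 20% lower, beside 29.3% of all genes, and 40% higher, beside 34.2%. The 60% called in either direction lay near the 63.5% of all genes.

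In GENCODE 29 (GRCh38) ABCA1 lies at chr9:104781002-104928237, ABCA3 at chr16:2275881-2340746, ABCC4 at chr13:95019829-95301475 and ABCB6 at chr2:219209766-219219017, all on the minus strand, and ABCG1 at chr21:42199689-42297244 on the plus strand. Of the 45 members, 27 overlap a gene annotated on the other strand. Of 11 pairs of members within 500000 bases of each other, 3 had both genes called. ABCB8 and ABCF2 differed in the same direction, and ABCB4 with ABCB1 and ABCA10 with ABCA5 in opposite ones. Some pairs held a gene that was not tested, and 63.5% of all tested genes were called. The share of such pairs over all genes was not computed. ABCB4 and ABCB1 are 23198 bases apart on chromosome 7, on the same strand, and ABCB4 was detected only under the LINC00665 label and ABCB1 only under the Vector label. ABCC1 and ABCC6 are 5854 bases apart on chromosome 16 and point towards each other, and ABCC1 was abundant under both labels while ABCC6 was detected under one. ABCC12 and ABCC11 are 10892 bases apart on the same chromosome, where ABCC12 had 0 counts. In ABCA8 with ABCA9, ABCA9 with ABCA6 and ABCG5 with ABCG8 both genes had 3 counts at most under either label.

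The stretch before the start sites differed with the level of the genes. RefSeq start sites were matched by symbol for 35 of the 45 members, and ABCA4, ABCA8, ABCB4, ABCB5, ABCC1, ABCC3, ABCC8 and ABCG1 were among those with no entry. The ratio of observed to expected CpG in the 250 bases, averaged over a gene's starts, had a median of 0.84 (range 0.155 to 1.13) in the 18 members with at least 1 CPM under both labels. It was 0.372 (0.077 to 0.979) in the 11 members under 1 CPM in at least one label and 0.234 (0.104 to 0.336) in the 6 with 3 counts at most under either, beside 0.545 over 27305 genes. ABCA3 and ABCA1, printed above, belong to the group under 1 CPM in one label and had ratios of 0.979 and 0.682. The Sp1-type GC box GGGCGG, searched on both strands and sharing its CG with the CpG count, was present in 21 of the 35 members (60%), beside 46.2% of all genes. The E-box CACGTG was present in 8 members (22.9%, beside 7.73%), among them ABCA1, ABCB6, ABCF1 and ABCG2. TATAAA was present in 6 (17.1%, beside 13%), among them ABCA1, ABCC2 and ABCC5. These are matches of letters in a window, and which start site was used in these cells was not measured. A gene was counted for a motif if any of its starts held it. The 35 members had 53 starts and the 27305 genes of the promoter set had 35116, and the shares were not adjusted for this.

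**Figure D4:**
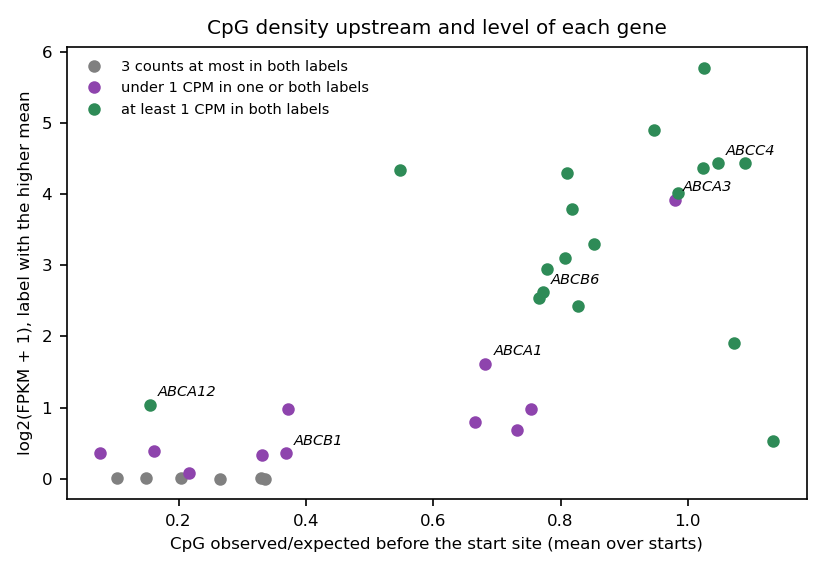
Each point is 1 of the 35 members with a RefSeq start, with the CpG observed to expected ratio of the 250 bases before it (mean over starts) on the x axis and log2(FPKM + 1) under the label with the higher mean on the y axis; colours give the level class. The 6 members with 3 counts at most (grey) lie at ratios of 0.104 to 0.336, and the members with at least 1 CPM under both labels lie mostly to the right, ABCA12 being an exception.

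The members also differed in how far replicates spread. Among members with a mean of at least 1 CPM, the median coefficient of variation was 22.2% in the Vector libraries and 9.36% in the LINC00665 libraries, beside 19.1% and 10.4% over all genes tested. Vector 3 was the lowest Vector library for 10 of the 34 members (29.4%) and the highest for 11 (32.4%), beside 34.4% and 36.6% over all genes. ABCD4, ABCA2 and ABCG4 were among the members in which Vector 3 lay furthest below the other Vector libraries; these 3 were chosen after their values were seen. Together the 45 members took 0.123% to 0.138% of the counts in the Vector libraries and 0.0705% to 0.0831% in the LINC00665 libraries.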

How the data were processed

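RNA was measured in 6 libraries, 3 per label, made from TRIzol RNA with an Illumina TruSeq kit, per the labels' protocols. HISAT2 2.0.4 and hg38 are named in the submitters' processing notes with no role; the sources used here do not state the counter, annotation or use of strand. The authors deposited 1 table with expected counts per gene, not normalized, and FPKM, which scale for gene length and depth; the units are named per the file headers. Expected counts (17289788 to 22725687 per library) were rounded, filtered with filterByExpr, scaled by TMM and tested over the whole table with edgeR 4.0.16 (glmQLFit, glmQLFTest) in R 4.3.3, without a covariate, with Benjamini-Hochberg adjustment. CPM use the scaled library sizes. FPKM were used to compare levels between genes. SE came from the fold change and F. Bounds (3 counts over a group) and exact 95% binomial intervals cover counting error only. The two-sided exact permutation p of single members was 0.1 at best, the smallest that 3 against 3 can give.

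Members were all rows matching the symbol rule. A member with a mean of at least 1 CPM in either label is described by library. Of each of 10 lists of partner genes the 3 tested genes with the smallest p are named. Single genes were added after their values were seen (PEX16, SLC25A37, SLCO2B1, SREBF1, SCD, FASN, NR1H3 and NR1H2). Members and lists were chosen with earlier results of these data known. Alternatives were other scalings, filters, thresholds, DESeq2 1.42.0, limma 3.58.1 (voom, and trend on log2(FPKM + 1)), a block on replicate number, and leaving out each library. No fit without the 3 libraries that did not match their label was possible, since no comparison would be left. Genes used in that check are not reported, and some members and listed genes, which the counts include, are not reported here. Replicate pairs differed by more than sampling noise (chi-square per degree of freedom 9.85 to 116). The test was tested on simulated data. All 45 members were found in GENCODE 29 (GRCh38), which gave locations and overlaps. Figures were drawn with matplotlib 3.10.9.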

Additional observations from a re-analysis of the deposited data

How the results depend on the processing

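Of the 25 called members, 20 stayed past the threshold in the same direction in each of the 14 alternative fits that tested them. None of the 25 reversed, with 0 such cases, and ABCC10, ABCA5, ABCC9 and ABCF2 were among those that lost the call. The stricter thresholds are not among these fits. ABCC3, ABCD3, ABCF1 and ABCB8 kept their call in the fits but fell short of an absolute log2 fold change of 1. Total-count scaling moved the median log2 fold change of all genes from 0.03 to -0.13, and ABCE1 and ABCF3 then passed as lower (adjusted p = 0.028 and 0.025). On the log2(FPKM + 1) scale changes of low genes are smaller, such as 1.58 for ABCA1. Requiring 1 CPM in both labels left 2 members higher, 0 of them drug exporters and 1 a lipid transporter, because fewer genes are tested. Requiring an absolute log2 fold change of 1 left 2156 genes lower, 8 members lower and 18 partner genes lower. Leaving out 1 library gave 8 to 11 members higher and 11 to 18 lower. Values that reversed were not called: ABCA2 without Vector 3 (-0.000477, and 0.64 without Vector 2) and ABCD4 without Vector 2 (0.16, and -0.59 without Vector 3) and by limma-trend (0.05). The cause was not tested.

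Same-numbered libraries of the 2 labels deviated together with correlations of 0.15, -0.13 and -0.15. Replicate 1 of each label was the best match of the other, and replicates 2 and 3 did not match by number. With 3 libraries per label these correlations cannot exclude a pairing. With the block 9 members were higher and 12 lower, and ABCC10, ABCC9 and ABCF2 were among those that missed the threshold (adjusted p = 0.055, 0.065 and 0.092). Depth limits detection to 0.051 CPM over a label, and members with 3 counts at most cannot be compared.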
